A study of Mus musculus with 19 samples.

Results

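The transcriptome of normal peritoneal fibroblasts was described from 5 of the 19 libraries of a mouse study of ovarian carcinoma spread in the peritoneal cavity. These 5 are all the libraries labelled as normal, numbered here as libraries 1 to 5 after their biological replicate numbers. Each came from 1 mouse, so values are given with their spread over 5 mice (SD, n = 5). The other 14 libraries, from tumour-bearing mice, were not used. The mice were C57BL/6;Col1a1-YFP transgenic animals, in which the promoter of Col1a1 drives a yellow fluorescent protein that marks collagen-making cells. Normal mice were controls that had received an intraperitoneal injection of 200 µL PBS, so all 5 had been injected. Their age and sex are not given in the labels. Peritoneum was stirred at 37 °C for 40 minutes with collagenase, trypsin and DNase, passed through a 70 µm strainer and freed of red cells by lysis, and fibroblasts were then sorted. The label fibroblast therefore rests on the activity of 1 collagen promoter in the sorted cells. RNA with an integrity number above 8 was made into libraries by MARS-seq, a method that counts sequence tags near the 3′ end of polyadenylated transcripts.

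Fibroblasts are the connective tissue cells that make and remodel extracellular matrix. In the peritoneum they lie in the layer of collagen and elastic fibres under the mesothelium, the epithelium-like sheet that lines the cavity. Their usual products are fibrillar collagens, small proteoglycans such as decorin that bind collagen fibrils, elastic fibre proteins, and the enzymes that process them.

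The libraries held 186032, 784373, 268295, 385096 and 304626 counts in the order of their numbers, and levels are in CPM, counts per 1000000 counts of a library. A gene with 0 counts could still have stood at up to 3 counts, which is 16.1, 3.82, 11.2, 7.79 and 9.85 CPM in libraries 1 to 5, and this limit covers counting error only. Because tags are counted near the 3′ end and not along the whole transcript, CPM were not divided by transcript length. Whether 1 count stands for 1 transcript is not known, since the use of molecular identifiers is not given. Levels of different genes are therefore compared as counted tags only. Of 12799 genes in the table, 12563 had a count in at least 1 library and 8448 in all 5. A mean of at least 10 CPM was reached by 8579 genes, of at least 100 CPM by 1658 and of at least 1000 CPM by 134. The 10 genes of highest mean held 10.4 ± 1.58% of a library's counts, the first 100 held 31.4 ± 1.91%, and the first 379 held 50.02% of the mean total. The ribosomal RNA gene Rn18s-rs5 took 4.65% of the counts of library 2 and between 0.323% and 1.10% of the other 4, so library 2 stood apart in that respect. All values here are of bulk RNA, in which fewer cells of a type and less RNA per cell cannot be told apart.

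The 5 markers taken to define the cells were present in every library. Col1a1, a chain of type I collagen and the gene whose promoter drives the reporter, stood at 1048, 1517, 1211, 1997 and 3135 CPM in libraries 1 to 5 (1782 ± 838). Col3a1, the type III collagen chain of loose connective tissue, stood at 7300, 7764, 5837, 6487 and 11611 CPM. Both genes were highest in library 5. Dcn, encoding decorin, stood at 4236, 4103, 4104, 6720 and 2222 CPM, and here library 5 was the lowest. Cd34, a surface sialomucin carried by many resting tissue fibroblasts, was even across the mice, at 1833, 1854, 1595, 1727 and 1671 CPM (1736 ± 109). Pdgfra, the platelet-derived growth factor receptor widely used to identify fibroblasts, was the lowest of the 5, at 226, 511, 179, 377 and 154 CPM (289 ± 151). A longer list of 10 pan-fibroblast markers, with Col1a2, Lum, Thy1, Fbn1 and others, summed to 33156 ± 4394 CPM, and all 10 exceeded 100 CPM. Of 13 genes reported as common to fibroblasts of many mouse tissues, 12 exceeded 100 CPM, led by Dpt (dermatopontin) at 3771 ± 441, Clec3b (tetranectin) at 2123 ± 210 and Cd34, with Pi16 next at 1687 ± 442 CPM.

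Summed markers of other cells were low beside the fibroblast lists but not all at 0. The 14 mesothelial genes summed to 1586, 760, 634, 732 and 666 CPM. Of these genes 13 exceeded 10 CPM and 3 exceeded 100, namely Rspo1 (175 ± 89.1), Cldn15 (146 ± 80.9) and Msln (mesothelin, 107 ± 64.3). Library 1 stood above the other 4, and its Msln level was 220 CPM against 63.7 to 88.6 in the others. In library 1 the fibroblast marker Pdgfra stood at 226 CPM, close to Msln. Mural cell genes ran from 227 to 653 CPM, skeletal muscle genes from 84.1 to 441 and endothelial genes from 102 to 295. Within the mural list Acta2, smooth muscle actin, ran from 33.5 to 265 CPM, with library 2 the highest. Macrophage and monocyte genes summed to 64.5 to 127 CPM, and Ptprc, encoding the pan-leukocyte antigen CD45, had 0 counts in all 5 libraries. Erythrocyte genes ran from 59.6 to 151 CPM and adipocyte genes from 75.2 to 161. B cell, neutrophil, mast cell and epithelial genes reached at most 16.1 CPM in any library, that is, a few counts. Of the genes listed, only 2 of 8 for B and plasma cells and 1 of 8 for neutrophils were analysed. For mast cells and for epithelium it was 3 of 7 each, so these low sums rest on few genes. Xist, the X-inactivation RNA of female cells, was the 1 sex-linked gene analysed and stood at 16.1, 24.2, 0, 20.8 and 6.57 CPM, from 3, 19, 0, 8 and 2 counts. The 10 listed T and NK genes were not analysed here. Whether the RNAs of other cell types came from other sorted cells, from free RNA or from the fibroblasts was not tested.

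**Figure D1:**
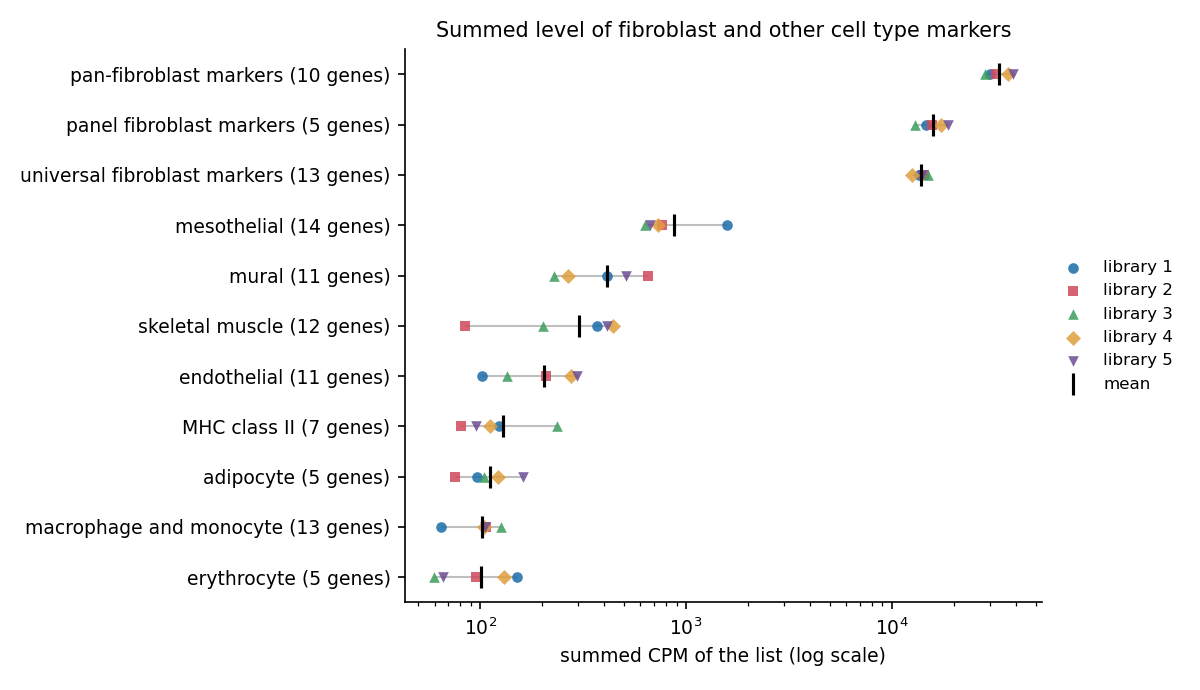
Summed CPM of marker lists in each of the 5 normal libraries, on a log axis, with the number of genes of each list in the table; points are libraries, black ticks are means and grey lines span lowest to highest. The 3 fibroblast lists lie at 12574 CPM or more in every library, and the mesothelial sum of library 1, 1586 CPM, is the highest value of the other lists plotted.

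The messenger RNA of highest mean CPM was Gsn, encoding gelsolin, a protein that severs actin filaments and also exists as a secreted plasma form. It stood at 25157, 21436, 27477, 20662 and 18639 CPM (22674 ± 3574), so about 2.27% of all counts came from this gene. Below it and Rn18s-rs5 came Col1a2 at 12128 ± 2617, Sparc at 11087 ± 2683 and Fos at 9170 ± 1580 CPM. Sparc encodes osteonectin, a secreted protein that binds collagen, and Fos encodes a subunit of the transcription factor AP-1. Then followed Gpx3, the secreted glutathione peroxidase, which was uneven at 13885, 5625, 8774, 7788 and 4317 CPM, with library 1 the highest. Col3a1, Serpinf1 (6583 ± 1581), Egr1 (5924 ± 1361) and Igfbp6 (5782 ± 1134) completed the first 10. Serpinf1 encodes pigment epithelium-derived factor, a secreted serpin that restrains vessel growth, Egr1 an immediate-early zinc finger factor, and Igfbp6 a binding protein of insulin-like growth factors.

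Ranks 11 to 25 were again mostly secreted proteins. They included Serping1, the inhibitor of complement protease C1, at 5029 ± 554 CPM, and C3, the central complement component, at 4853 ± 1316. Igfbp7 (4939 ± 1515), the metalloproteinase inhibitor gene Timp2 (4127 ± 317), the procollagen processing enhancer Pcolce (3821 ± 450) and matrix Gla protein Mgp (3400 ± 1471) belonged to the same class. Cell-internal genes among them were Vim, the intermediate filament protein vimentin, at 4930 ± 976, Actb at 4176 ± 219, Gnas, the stimulatory G protein subunit, at 4251 ± 357, the ferritin heavy chain Fth1 at 3608 ± 291 and the ribosomal protein gene Rplp1 at 3521 ± 370 CPM. Plac9 stood at 3956 ± 1235 and Itm2b at 3581 ± 272. Plac9 and Rplp1 shared 50-base words with another gene over most of their last 300 transcript bases, so their levels are uncertain. Since CPM are compared here between genes as counted tags, the order was also taken after division by transcript length: 13 of the first 25 and 63 of the first 100 were then still among the first 25 and 100.

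**Figure D2:**
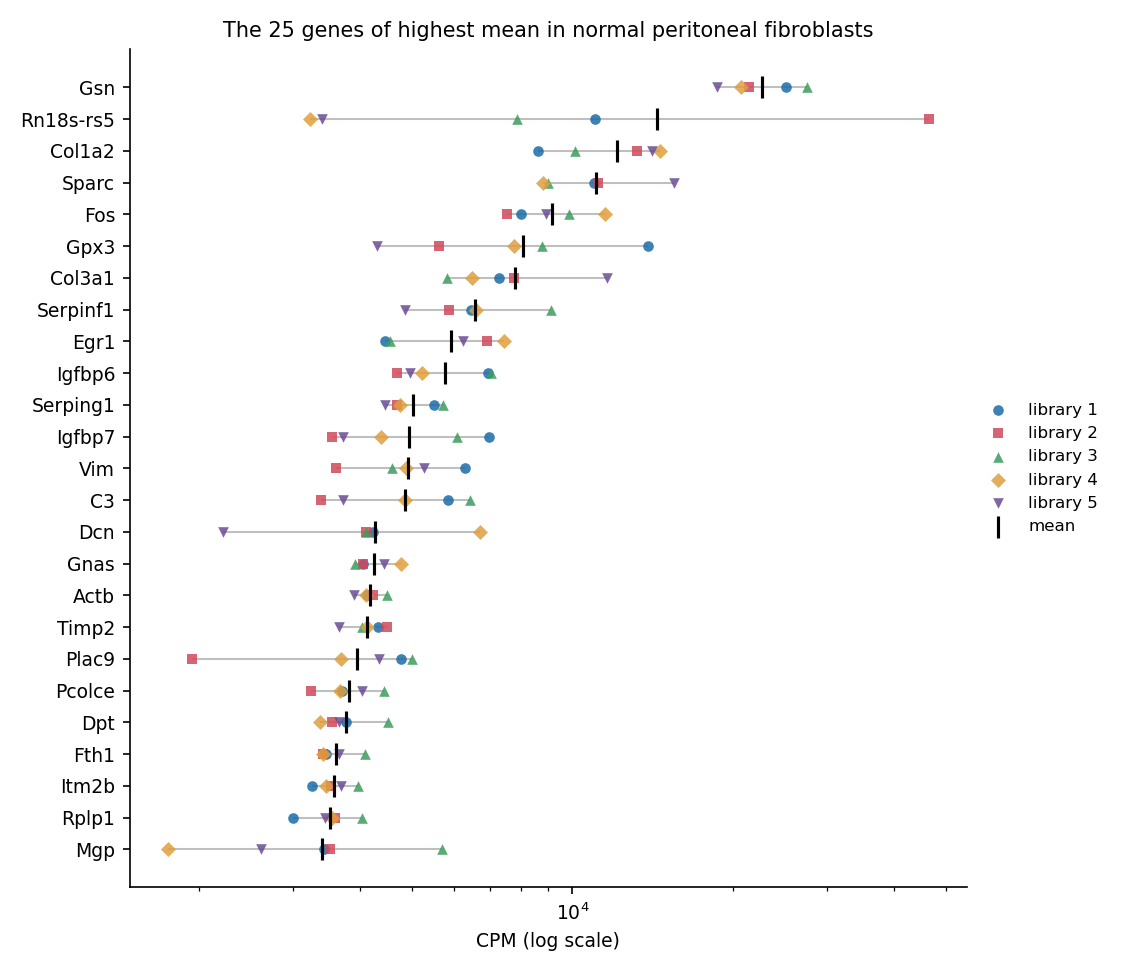
CPM of the 25 genes of highest mean in the 5 normal libraries, on a log axis; points are libraries, black ticks are means and grey lines span lowest to highest. Gsn leads in mean, at 22674 CPM, and Rn18s-rs5 shows the widest range, from 3225 to 46460 CPM.

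Extracellular matrix genes made up a stable share of the transcriptome. The 144 genes of 8 matrix lists took 11.3, 11.4, 11.3, 10.9 and 11.7% of the counts of libraries 1 to 5 (11.3 ± 0.288%), and 88 of them exceeded 100 CPM. Within that even total the lists did not share an order of libraries. Fibrillar collagen genes, which encode the chains of load-bearing fibrils, summed to 18588, 23992, 18618, 24786 and 31091 CPM, and library 5 was the highest. Matrix protease and inhibitor genes summed to 16965, 14327, 16314, 13259 and 11227 CPM, and there library 5 was the lowest.

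Among fibrillar collagens, Col1a2 exceeded Col1a1 in every library, although 2 chains from Col1a1 join 1 chain from Col1a2 in the usual type I collagen molecule. The ratio of Col1a2 to Col1a1 CPM was 8.23, 8.71, 8.35, 7.31 and 4.50, and library 5 had the lowest ratio and the highest Col1a1. Neither gene shared any 50-base word of its last 300 transcript bases with another gene in the reference transcripts (GENCODE vM21). Whether the position of the counted tag or of the annotated 3′ end bears on this ratio was not tested. Col5a1 and Col5a3, minor fibril chains, stood at 1047 ± 233 and 572 ± 80.4 CPM. The beaded-filament collagens Col6a2 (3382 ± 1243) and Col6a1 (2837 ± 393) led the non-fibrillar list, followed by Col14a1 (1682 ± 402), a fibril-associated collagen, Col6a3 (1167 ± 270) and Col15a1 (934 ± 273).

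Basement membrane genes summed to 4740 ± 393 CPM, led by the type IV collagen chain Col4a1 at 973 ± 60.1, the laminin chain Lamb2 at 824 ± 284 and nidogen, Nid1, at 747 ± 87.7. Small leucine-rich proteoglycans summed to 9947 ± 1439 CPM, of which Dcn made 43.0%. After it came biglycan, Bgn, at 3049 ± 423, fibromodulin, Fmod, at 997 ± 422, and Prelp at 951 ± 149. Elastic fibre genes were broadly expressed, with 18 of 21 above 100 CPM. Elastin itself, Eln, ran at 984, 2172, 1688, 1665 and 2705 CPM, lowest in library 1 and highest in library 5. Ltbp4, which tethers latent TGF-beta and helps to assemble elastin, stood at 2918 ± 808, Fbln2 (fibulin 2) at 1483 ± 394 and Mfap4 at 1287 ± 291 CPM. Among matricellular and adhesive genes, which modulate how cells attach, Tnxb (tenascin X) stood at 2883 ± 1161, Thbs4 (thrombospondin 4) at 2457 ± 922 and Fn1 (fibronectin) at 1463 ± 623 CPM.

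All 21 collagen maturation genes in the table exceeded 10 CPM, and after Pcolce the highest were Serpinh1, the collagen chaperone HSP47, at 1910 ± 509, and the lysyl oxidase relative Loxl1 at 1116 ± 276. Proteases were led by Htra3 (3284 ± 1107), the gelatinase gene Mmp2 and Htra1 (1627 ± 445). Mmp2 stood at 2784, 1214, 3191, 1309 and 1234 CPM, so libraries 1 and 3 were more than 2 times the other 3. Mmp14, a membrane-bound activator of pro-MMP2, stood at 538, 691, 693, 621 and 450 CPM, without that split.

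**Figure D3:**
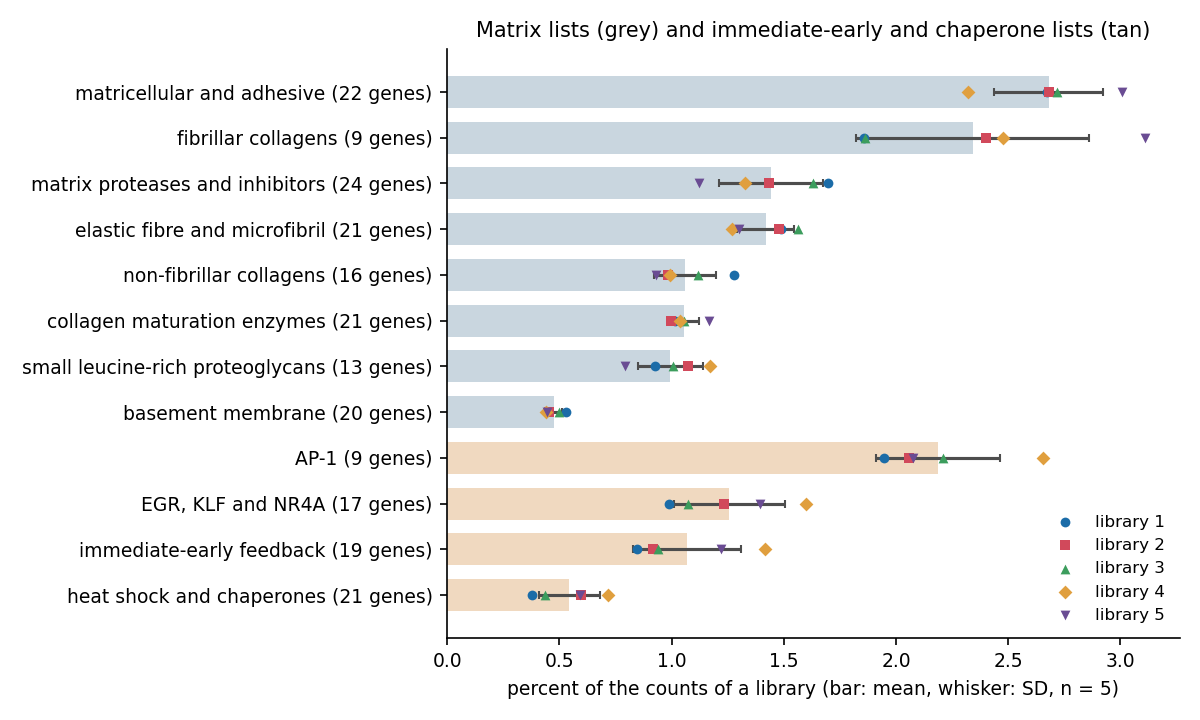
Percent of a library's counts in 8 matrix lists (grey bars) and in 3 immediate-early lists and the chaperone list (tan bars); bars are means, whiskers SD (n = 5) and points libraries, on a linear axis from 0. Library 4 is the highest in all 4 tan lists, and library 5 in fibrillar collagens.

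Immediate-early genes formed another large block. They are transcribed within minutes after growth factors, injury or stress, without new protein synthesis, and many encode transcription factors or proteins that end the response. The tissue was stirred with enzymes at 37 °C for 40 minutes, so levels before and after that step cannot be told apart. Together the 45 genes of 3 lists took 3.78, 4.21, 4.22, 5.67 and 4.69% of counts (4.51 ± 0.722%), with library 4 the highest, and 31 exceeded 100 CPM. Fos stood at 8009, 7546, 9840, 11514 and 8939 CPM, that is, among the 5 genes of highest mean CPM. The other AP-1 subunits Junb (3123 ± 583), Fosb (3064 ± 520), Jun (2924 ± 390) and Jund (2251 ± 312) all had means above 2000 CPM. The median biological coefficient of variation (BCV, the spread left after counting error in edgeR's model) of the AP-1 genes above 100 CPM was 0.261. Over all 1658 genes above 100 CPM it was 0.284. The model draws BCV towards a common value, so this small gap is not read as a difference.

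In the EGR, KLF and NR4A list, Klf4 stood at 1746 ± 471, the nuclear receptor gene Nr4a1 at 1017 ± 298, Ier2 at 954 ± 122 and Klf2 at 847 ± 248 CPM. Of the 11 genes of this list above 100 CPM, 8 were highest in library 4, as were 225 of all 1658 genes above 100 CPM. Genes that damp the response, which include phosphatases and mRNA-decay factors, summed to 8477, 9186, 9404, 14178 and 12192 CPM. Zfp36, encoding the mRNA-destabilising protein tristetraprolin, stood at 1596, 1887, 1644, 3542 and 2232 CPM, highest in library 4, whereas Dusp1, a phosphatase of MAP kinases, was even at 1793 ± 254. Socs3, an inhibitor of cytokine receptor signalling, stood at 790, 765, 615, 1257 and 1451 CPM, higher in libraries 4 and 5 than in the rest.

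Heat shock genes were also uneven. Hspa1b, an inducible HSP70 gene, stood at 199, 423, 194, 1093 and 706 CPM, and its close copy Hspa1a at 280, 414, 280, 771 and 423, both highest in library 4. Reads of this pair may be split between them, although their last 300 bases shared no 50-base word with another gene. Hspa8, the constitutive HSP70 gene, varied less, at 1326 ± 179 CPM. Of 11 heat shock and chaperone genes above 100 CPM, 7 were highest in library 4 and 6 were lowest in library 1. Over all 1658 genes above 100 CPM, 225 were highest in library 4 and 395 lowest in library 1. In library 4 the mitochondrially encoded genes were also at their highest, at 4651 CPM against 588 to 2236 in the others. All 6 of these genes above 100 CPM were highest in library 4 and lowest in library 2, the library with the most Rn18s-rs5. Library 2 was the lowest for 486 of all 1658 genes above 100 CPM. The part of RNA quality or of handling in these differences was not tested.

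Promoter sequences of the immediate-early genes are shown with 2 of 7 short elements searched, a pair picked after the shares were seen for standing highest relative to all promoters, with the CRE close behind. RefSeq promoters (build GRCm38.p6, 250 bases before to 50 after the first listed start) were at hand for 9408 of the 12799 genes, and both strands were searched. A TATA box, TATAAA, was present in 7.11% of these 9408 promoters, in 9.34% of those of genes above 100 CPM, in 18 of 73 (24.7%) of the 100 genes of highest mean and in 8 of 27 (29.6%) of the immediate-early genes above 100 CPM. An EGR site, GCGGGGGCG or GCGTGGGCG, was present in 7.05% of all promoters and in 7 of 27 (25.9%) of the immediate-early ones. Matrix genes above 100 CPM held a TATA box in 9 of 63 (14.3%) and an EGR site in 2 (3.17%). The other elements were, among the 27 and among all 9408 promoters, the CRE (TGACGTCA) in 11.1% and 3.13%, the CCAAT box (CCAAT) in 48.1% and 38.1%, the GC box (GGGCGG) in 70.4% and 66.1%, the AP-1 site (TGACTCA or TGAGTCA) in 0 and 3.47% and the CArG box in 3.70% and 1.28%. An EGR site followed by G also holds a GC box. No test was made of these shares, and they overlap, since the immediate-early and matrix genes are part of all genes, and a match is a description of letters, not of a bound factor. The sequences printed below were picked after their matches were seen. In the 120 bases before the start, the immediate-early genes Junb and Klf4 held neither element, and the TATA box counted for Junb began at the start itself. Of matrix genes not printed, Col3a1 held a TATA box in that stretch and Sparc held neither. The stretch is printed 5′ to 3′ on the gene's strand, with TATA boxes and EGR sites on either strand in capitals. There Fos (chr12:85473770-85473889, plus strand) and Gadd45b (chr10:80929971-80930090, plus strand) held a TATA box. Fosb (chr7:19310046-19310165, minus strand), Nr4a1 (chr15:101266726-101266845, plus strand) and Zfp36 (chr7:28379229-28379348, minus strand) held an EGR site, and Col1a2 (chr6:4505498-4505617, plus strand), shown for contrast, held neither:
Fos: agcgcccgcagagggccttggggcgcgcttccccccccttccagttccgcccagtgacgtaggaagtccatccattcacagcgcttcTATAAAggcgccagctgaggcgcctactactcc
Gadd45b: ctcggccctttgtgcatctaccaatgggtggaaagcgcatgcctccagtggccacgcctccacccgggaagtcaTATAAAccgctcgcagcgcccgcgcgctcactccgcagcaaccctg
Fosb: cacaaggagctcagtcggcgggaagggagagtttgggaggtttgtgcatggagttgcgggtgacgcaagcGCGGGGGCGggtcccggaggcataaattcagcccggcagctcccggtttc
Nr4a1: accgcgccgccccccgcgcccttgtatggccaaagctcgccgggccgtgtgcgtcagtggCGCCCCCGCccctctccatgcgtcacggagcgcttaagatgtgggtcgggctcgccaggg
Zfp36: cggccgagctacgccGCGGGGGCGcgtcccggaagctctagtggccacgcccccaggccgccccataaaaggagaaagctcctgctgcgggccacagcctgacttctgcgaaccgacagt
Col1a2: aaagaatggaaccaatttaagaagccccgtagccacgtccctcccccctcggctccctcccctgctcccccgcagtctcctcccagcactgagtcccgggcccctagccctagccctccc

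Genes of immunity were present in unequal measure. Complement genes summed to 12841 ± 2028 CPM, of which Serping1, C3 and C1s1 made 84.4%, and C1s1 and C1ra, the proteases of the C1 complex, stood at 949 ± 172 and 859 ± 138. MHC class I genes, which present peptides to cytotoxic T cells, summed to 5386 ± 614 CPM, led by H2-D1 at 1502 ± 396. MHC class II genes, usually carried by antigen-presenting cells, summed to only 124, 80.3, 235, 112 and 95.2 CPM, with library 3 the highest. Chemokine genes were led by Cxcl1, whose product draws in neutrophils, at 177, 746, 276, 810 and 880 CPM, low in libraries 1 and 3. Cxcl12, which attracts lymphocytes and progenitors, was even at 252 ± 41.9, and Cxcl14 stood at 236 ± 57.7. In the cytokine list the highest was Csf1, the macrophage growth factor, at 459 ± 85.3 CPM, followed by the shared interleukin 6 receptor chain Il6st at 357 ± 36.6. Nfkbia, the NF-kB inhibitor, stood at 629, 785, 809, 1602 and 1136 CPM, highest in library 4. Interferon-stimulated genes summed to 1976 ± 394 CPM, with 4 of 24 above 100.

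In 4 signalling lists the highest members encoded secreted proteins that are not the pathway's ligands. In the IGF system, which summed to 15857 ± 3067 CPM, the binding proteins Igfbp6, Igfbp7, Igfbp5 (1669 ± 497) and Igfbp3 (1021 ± 265) each exceeded 1000. WNT pathway genes were led by the secreted antagonists Sfrp4 (1740 ± 445) and Sfrp2 (1041 ± 494). BMP genes were led by Mgp and by Fstl1 (1676 ± 179), an extracellular glycoprotein, and TGF-beta genes by Ltbp4 and Tgfbi (1781 ± 503). Growth factor receptors had the steadiest sum of these lists, at 3854, 3507, 3615, 3591 and 3519 CPM (3617 ± 140). Axl, the receptor tyrosine kinase for Gas6, stood at 1086 ± 330.5, and Gas6 itself at 1789 ± 646 CPM. Fgfr1 stood at 548 ± 102 and Ntrk2, the receptor for brain-derived neurotrophic factor, at 397 ± 89.2.

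Fibroblast transcription factor and positional genes ranged from high levels to below 10 CPM. Of all 12799 genes in the table, 8579 had a mean of at least 10 CPM. Nfix (1785 ± 606), Klf4, Creb3l1 (613 ± 147), Prrx1 (395 ± 106) and Osr1 (336 ± 82.1) were the highest of 33 fibroblast factors in the table, of which 29 exceeded 10 CPM. Of 24 Hox genes, which record position along the body axis, 17 exceeded 10 CPM, a share close to that of all genes. The sum of the Hox genes was steady at 763 ± 82.7 CPM. The highest was Hoxc6 at 153 ± 27.3, followed by Hoxc9 (78.1 ± 28.5), Hoxa7 (75.3 ± 37.5), Hoxc8 (64.4 ± 17.1) and Hoxc10 (49.2 ± 15.7), and these 4 followers overlapped in their ranges.

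Proliferation genes were near the counting limit. The 22 cell cycle genes in the table summed to 218 ± 44.2 CPM, none exceeded 100, and Pcna, the DNA clamp, made 35.0% of the sum. Genes of the growth arrest list summed to 4819 ± 737 CPM, but Gas6, the ligand of Axl, made 37.1% of that. The sum is therefore not read as a measure of arrest. After Gas6 came Gas1 (1081 ± 89.4) and Cdkn1a (995 ± 338), the inhibitor of cyclin-dependent kinases. Cdkn1a was highest in library 4 at 1553. Contractile genes summed to 3005 ± 485 CPM and none reached 1000. Cytosolic ribosomal protein genes were the largest family, 89 genes with 65565 ± 4286 CPM or 6.56% of counts, and 71 of them exceeded 100 CPM. Their levels per gene are uncertain, because 42 of the 89 shared 50-base words with another gene over most of their last 300 bases, and 131 pseudogene entries held a further 3042 ± 242 CPM. Metallothionein and antioxidant genes summed to 21037 ± 3818 CPM, led by Gpx3, Fth1 and Mt2, and Mt2, a metal-binding stress gene, stood at 500, 1568, 1092, 2381 and 2180 CPM.

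Spread between mice was moderate for most genes. Over the 1658 genes that averaged 100 CPM or more, the median coefficient of variation (CV) of CPM was 0.261, and the median CV that counting alone would give was 0.130. The median BCV was 0.284, with quartiles of 0.261 and 0.319. The model draws BCV towards a common value, here 0.313, and the median BCV lies above the median CV of CPM itself. These BCV values are therefore not read as the size of the spread left after counting error. The highest library was at most 2 times the lowest for 925 genes (55.8%), and 75 genes had a ratio above 5 or a library at 0. For 393 genes the CV was under 1.5 times the counting CV, so depth limits what can be said of their spread. The lowest BCV values were those of Eif4a3 (113 ± 6.08 CPM), a core protein of the exon junction complex, Slc43a3 (233 ± 22.6), Nadk (106 ± 12.6) and Arhgap1 (117 ± 10.8). Tmem234 (217 ± 16.6), Pbxip1 (112 ± 7.22), Rpl13a (104 ± 10.2) and Polr2e (112 ± 15.6) completed the 8 lowest. At this depth the spread of these genes cannot be told apart from counting error, so they are not shown to be steadier than others. Among abundant genes Actb, Gnas, Cd34 and Itm2b also had narrow ranges.

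**Figure D4:**
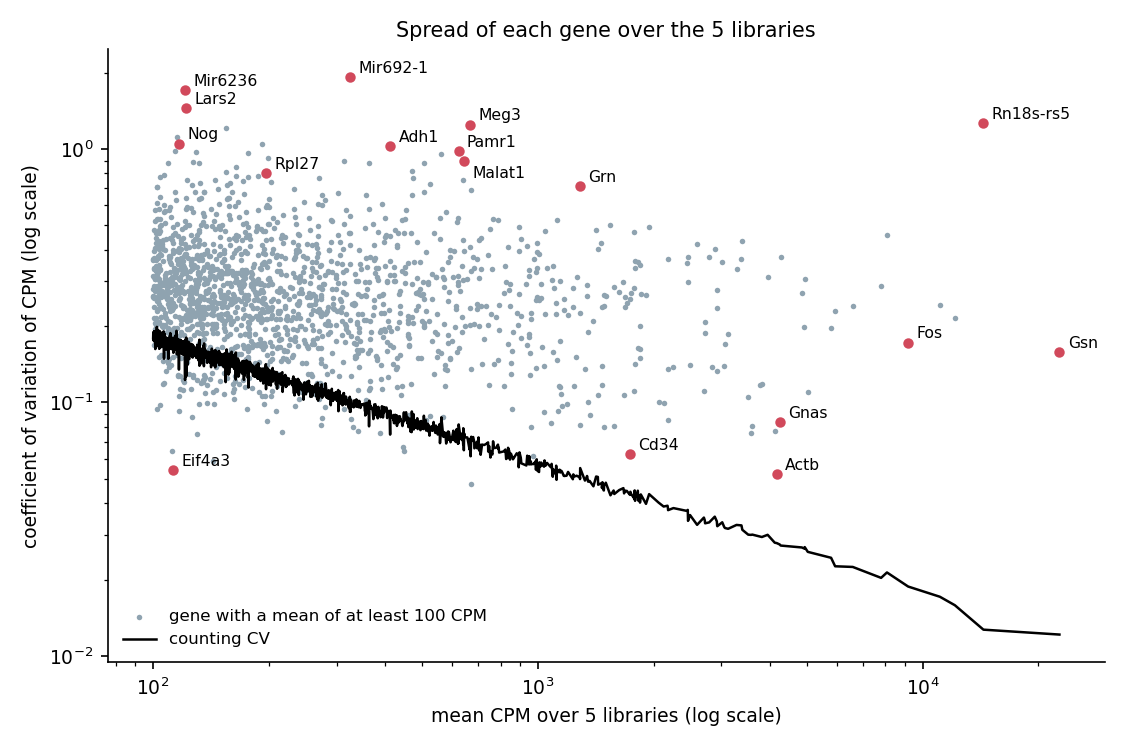
Coefficient of variation of CPM over the 5 libraries against mean CPM for 1658 genes, both axes logarithmic; the black line is the CV that counting alone would give, and red points are named genes. Mir692-1, Mir6236 and Lars2 are at the top, and Eif4a3 lies below the counting line.

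The widest spreads belonged to several kinds of gene. Small and ribosomal RNA entries were Mir692-1, at 53.8, 19.1, 89.5, 1439 and 22.98 CPM, Mir6236, at 43.0, 490, 41.0, 15.6 and 16.4, and Rn18s-rs5. In each of these 1 library stood far above the rest, library 4 for the first and library 2 for the other 2. Lars2, the mitochondrial leucyl-tRNA synthetase gene, was likewise highest in library 2, at 37.6, 439, 52.2, 39.0 and 42.7 CPM. Long noncoding RNAs were Meg3, an imprinted transcript, at 113, 222, 198, 709 and 2098 CPM, and Malat1, a nuclear RNA, at 102, 780, 67.1, 808 and 1454, and both peaked in library 5. Protein-coding genes were Nog (noggin, a BMP antagonist), at 5.38, 283, 52.2, 210 and 32.8 CPM, Angptl4, at 285, 274, 7.45, 267 and 49.2, Adh1, an alcohol dehydrogenase that oxidises retinol, at 237, 1123, 153, 478 and 75.5, and Pamr1, at 1199, 101, 1375, 192 and 246. Rpl27 and Rpl7 were also on this list, but 83.3% and 74.1% of the 50-base words at their ends occurred in other genes, so their values are uncertain. Nog in library 1 and Angptl4 in library 3 lay below the levels that 0 counts allow there, 16.1 and 11.2 CPM, so the size of their ranges is uncertain.

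The libraries were not equally alike. Spearman correlations of CPM across the 1658 genes, which are not independent replicates, ran from 0.662 for libraries 1 and 2 to 0.862 for libraries 4 and 5, with 0.858 for 1 and 3 and 0.849 for 2 and 4. Libraries 1 and 3 were the 2 highest for 424 of the 1658 genes (25.6%), and libraries 4 and 5 for 283 (17.1%). The other 8 pairs took between 3.86% and 11.6%. Libraries 1 and 3 were also the shallowest, but after every library was thinned to 186032 counts their correlation was 0.852 and that of libraries 1 and 2 was 0.647. For 18 genes libraries 1 and 3 were the 2 highest and the lower of them was at least 2 times every other library, and for the other 9 pairs that count was between 0 and 5. Mmp2 and Pamr1 were among the 18, and so were Grn, the progranulin gene, at 2279, 594, 2296, 763 and 509 CPM, and Ftl1, the ferritin light chain gene, at 1290, 305, 1021, 312 and 272, of whose end 65.7% is shared with other genes. Further members, named after their values were seen, were Ecm1 (2053, 877, 2255, 906 and 995 CPM) and the lysosomal cholesterol carrier Npc2 (1193, 400, 1219, 491 and 522). The labels give no batch, date or cage that could be set beside this likeness, and its source was not tested. As a check for a library deposited more than once, the chi-square per degree of freedom between the counts of 2 libraries, which grows with depth, was 2.51 to 7.36, and all 5 were counted as separate samples.

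**Figure D5:**
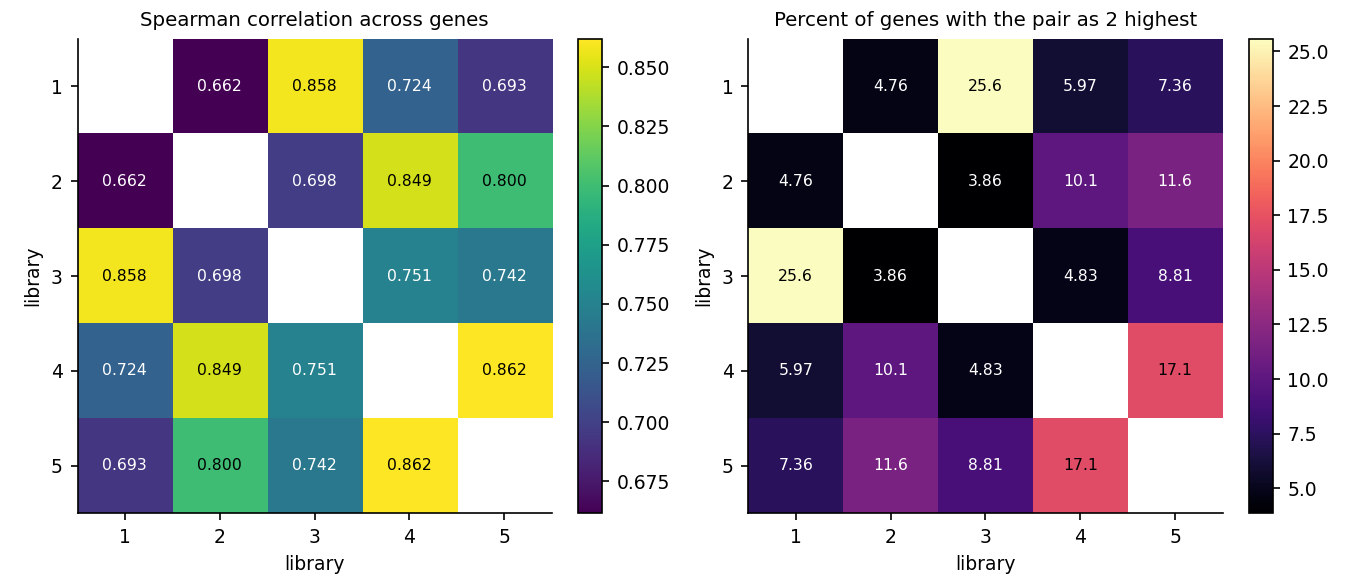
Likeness of the 5 normal libraries over 1658 genes that averaged 100 CPM or more: Spearman correlation of CPM (left) and percent of genes for which a pair of libraries is the 2 highest (right). Pairs 1 and 3, 0.858 and 25.6%, and 4 and 5, 0.862 and 17.1%, lead in both panels.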

How the data were processed

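Polyadenylated RNA of sorted fibroblasts was sequenced by MARS-seq, 1 library per mouse, per the labels' protocols. Raw counts of each gene, as deposited by the authors and named so in the file headers, were the values used, and of these the 5 normal columns alone. GRCm39 and DESeq2 are named in the submitters' processing notes. Which aligner, annotation and strand setting were used, and whether molecular identifiers were collapsed, is not given in the sources used here.

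CPM were taken on library totals of 186032 to 784373 counts, which set the precision. No test was made, since no groups were compared. Spread was estimated as tagwise BCV in an intercept-only model (edgeR 4.0.16, TMM, R 4.3.3) for 1658 genes that averaged 100 CPM or more. On simulated counts of the same depths, 86.5% of 200 genes of raised spread were among the 200 highest, and BCV was drawn towards the common value (0.265 for a true 0.2 and 0.545 for 0.7). Sums were taken over gene lists and families by exact symbol. Genes of 21 IDs without symbol held 0.0346% of counts. Transcript ends were compared with GENCODE vM21 and promoters taken from RefSeq on GRCm38.p6, so no coordinates of the counts were used. Tables were handled with Python 3.11.15 and pandas 2.3.3.

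Genes named were the 5 markers, the 25 genes of highest mean, up to 5 members of highest mean per list above 10 CPM, the 12 highest and 8 lowest in BCV without predicted genes, the 3 genes furthest above the other libraries in each library, and the Hox genes; 1 cell marker list is not reported here. The markers, the lists and this rule were chosen with earlier results of these data known. Alternatives were TMM-scaled totals, DESeq2 1.42.0 size factors and dispersions, totals without Rn18s-rs5 and mitochondrially encoded genes, the median and the pooled counts, CPM per kb, other filters, a minimum of 3 counts, thinning to 186032 counts, log2(CPM + 1) and each library left out in turn.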

Additional observations from a re-analysis of the deposited data

Results flagged for a closer look

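Of 176 genes, gene lists and library totals examined, 17 had 1 library whose gap to the nearest other was large for the range of the 5, or 9.66%, and over all 1658 genes that averaged 100 CPM or more this held for 91 (5.49%). Chance flags about 1 in 20 groups. The 9.66% cannot be set beside that, because some of the 176 were named for standing out in 1 library. Mir692-1, Mir6236, Lars2 and Rn18s-rs5 are among these. Among the 91 the odd library was number 1 for 26 genes, number 2 for 24, number 3 for 25 and numbers 4 and 5 for 8 each.

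Library 1 had the high mesothelial sum, 1586 CPM against 634 to 760, with Msln at 220 CPM against 63.7 to 88.6. In the same library Hoxa7 was high, at 140 CPM against 48.5 to 70.1, Hoxc10 low, at 21.5 against 52.5 to 59.7, and the sum of ribosomal protein pseudogenes low, at 2612 against 3112 to 3177. The 2 Hox values rest on few counts, since 1 count is 5.38 CPM in library 1.

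Library 2 was high in Rn18s-rs5 (46460 CPM against 3225 to 11004), Mir6236 (490 against 15.6 to 43.0), Lars2 (439 against 37.6 to 52.2) and Rpl7 (478 against 22.98 to 130). It was also high in the matrix genes Col15a1 (1400 against 719 to 901) and Thbs4 (4038 against 1709 to 2376), and its sum of fibroblast transcription factors was low, at 5343 against 7276 to 7965 CPM.

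In library 3 the MHC class II sum was high, at 235 CPM against 80.3 to 124, and Col5a3 was low, at 432 against 586 to 628. Library 4 was high in Mir692-1 (1439 CPM against 19.1 to 89.5) and Nr4a1 (1542 against 820 to 942). Library 5 was high in Col5a1, at 1444 CPM against 826 to 995.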

How the results depend on the processing

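The levels of all 132 genes and the sums of all 43 lists examined stayed within 1 SD of their values under 3 other scalings. These were TMM-scaled totals, DESeq2 size factors, and totals without Rn18s-rs5 and mitochondrially encoded genes. Leaving out 1 library can never move a mean by 1 SD at this sample size, so that limit says nothing of stability there. DESeq2-normalised counts were scaled to totals that average 1000000; on the mean raw total every level would have been 13.1% lower, a choice made after seeing the data. Division by transcript length kept 13 of the 25 genes of highest mean. Without a filter on low levels the median BCV was 0.403 instead of 0.284, and with each library left out it ran from 0.270 to 0.309, highest without library 4. Of the 12 genes of highest BCV, 7 to 11 remained with a library left out, fewest without library 2. Leaving out 1 library moved some means by more than 1.5 times. Without library 2, Rn18s-rs5 fell from 14388 to 6370 CPM, Adh1 from 413 to 236, Rpl7 from 154 to 73.5, Lars2 from 122 to 42.9, Mir6236 from 121 to 29.0, Nog from 117 to 75.2 and Acta2 from 110 to 70.7. Mir692-1 fell from 325 to 46.3 without library 4, and Meg3 from 668 to 310 without library 5. The median Spearman correlation between libraries was 0.746, and 0.739 after thinning. No paired analysis was possible because only 1 group was described. Depth limits statements on genes below about 16 CPM, the limit that 0 counts allow in library 1.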

Other observations

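Several genes that are abundant in most cells were low in the table, and they were chosen after their values were seen. Gapdh, the glycolytic enzyme often used as a reference gene, had a mean of 11.8 CPM, Pgk1 1.84, Ppia 22.98, Eef1a1, the main translation elongation factor, 55.4, Eno1 47.8 and Actg1 101, while Actb stood at 4176. Of the 50-base words in their last 300 transcript bases, 82.9% occurred in another gene for Gapdh and 90.0% for Eno1, 23.5% for Eef1a1 and 21.5% for Ppia, but none for Pgk1 and Actg1. Among ribosomal protein genes, the 26 with no shared word had a median of 652 CPM and the 42 with most words shared had a median of 515. Rplp1 and Rps2, with 66.9% and 78.1% shared, stood at 3521 and 2701 CPM. How the authors' counting treated reads that fit more than 1 place, and how their annotation set 3′ ends, was not tested. Across 8562 genes that averaged 10 CPM or more, the Spearman correlation of mean CPM with transcript length was -0.12, given as a description over genes.

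Some further genes also varied between the mice, and these too were picked after their values were seen, although Gm6204 and Itgb3 also fall under the naming rule. Igf1, an insulin-like growth factor gene, stood at 290, 1280, 250, 1031 and 492 CPM in libraries 1 to 5. Ly6a, the gene of the stem cell antigen Sca-1, stood at 527, 1098, 212, 387 and 125. The predicted gene Gm6204 stood at 1226, 5.10, 1044, 280 and 253 CPM, a range of more than 200 times between libraries 1 and 2. The value of library 2 is near the 3.82 CPM that 0 counts allow there, so the size of this range is uncertain. Itgb3, an integrin chain of the vitronectin receptor, stood at 161, 34.4, 171, 28.6 and 29.5. Il6 and Ccl2, inflammatory mediators that fibroblasts can secrete, stood at 5.38 to 72.7 and 0 to 144 CPM.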
